A study of Mus musculus with 8 samples.

Results

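The MYC and MAX network is a family of transcription factors that bind DNA as pairs. MYC pairs with MAX and activates genes of growth, ribosome production and cell division, while MXD proteins (Mxd1, Mxd3, Mxd4 and Mxi1), MNT and MGA compete for MAX and recruit repressors to the same DNA sites, called E-boxes. MLX and MLXIP (also called MondoA) form a parallel branch that responds to glucose and its metabolites. In macrophage precursors, MYC is known to be induced by RANKL and to be needed for osteoclast formation. The genes described are the 10 rows of the deposited table whose symbol is Myc, Max, Mxd1, Mxd3, Mxd4, Mxi1, Mnt, Mga, Mlx or Mlxip, out of 24940 genes.

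RNA was sequenced from bone marrow-derived macrophages (BMMs), the precursors of bone-resorbing osteoclasts, of C57BL/6 mice aged 6 to 8 weeks. Marrow cells spent 16 h in 5 ng/ml M-CSF, the growth factor on which macrophages of this lineage depend. Those that had not attached were then kept for 3 days in 30 ng/ml, and the cells attached by then were used, with 30 ng/ml M-CSF also during the treatment. A short hairpin RNA was present in all of them, either the one labelled NCsh or the one labelled TMBIM6sh. Cells with each hairpin were left without RANKL or given 100 ng/ml of it, the cytokine that drives osteoclast formation, for 24 h. This made 4 groups, each of 2 libraries. The series title concerns TMBIM6 deficiency, osteoclast formation and bone loss. The treatment protocol names RANKL for every sample, and the titles and treatment tags show which groups had none. NCsh is not spelled out. Because a single hairpin stands for each side, the loss of Tmbim6 and other effects of that hairpin cannot be told apart. The labels do not say whether duplicates came from separate animals or cultures. The p-values therefore measure only the spread between these libraries, which may be technical.

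Depth was 25475000 to 28595000 tags a library, and exons of genes held 83.5% to 86.4% of them. Tmbim6, the targeted gene, was at 330 and 334 RPKM (a level scaled to exon length and library depth) in NCsh libraries without RANKL and at 309 and 321 RPKM with RANKL. Under TMBIM6sh it was at 11.1 and 11.7 RPKM without RANKL and at 10.0 and 10.5 RPKM with RANKL, which is 29.0-fold and 30.8-fold lower by the ratio of means. All 8 macrophage markers were detected. Their summed level was 8999 to 10366 RPKM in NCsh libraries without RANKL and 8863 to 8954 RPKM with RANKL. In TMBIM6sh libraries it was 8212 to 8226 RPKM without RANKL and 7186 to 7774 RPKM with RANKL. Lyz2 alone reached 8071 RPKM, most of the sum in that library. The summed levels of dendritic, lymphocyte, erythroid, and mast and basophil markers were at most 1.13, 0.168, 0.127 and 0.045 RPKM. Stromal markers summed to 1.90 to 2.84 RPKM. Neutrophil markers summed to 22.6 to 28.1 RPKM in NCsh libraries and 11.5 to 15.5 RPKM in TMBIM6sh libraries, and only S100a8 of these 7 passed the filter on low values. The part of this difference in the comparisons of hairpins was not tested.

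The E-box that MYC-MAX and MXD-MAX pairs bind best reads CACGTG, a sequence that is its own reverse complement. It was searched in windows from 250 bases before to 50 bases after each RefSeq transcription start (GRCm38.p6), where 7.15% of 32851 promoters hold it. Promoter entries were found for 9 of the 10 network genes, all but Myc, and 4 of these 9 genes held the motif, namely Max, Mlx, Mnt and Mxd4. Among all 27025 genes with an entry 8.09% held it. The 30 bases around each motif are shown because these are the network genes whose own start regions carry the site at which the network acts. The motif is in capitals, and each sequence is written on the strand of its gene.
Max, chr12:76962234-76962263, minus strand: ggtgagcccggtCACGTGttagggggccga
Mlx, chr11:101087238-101087267, plus strand: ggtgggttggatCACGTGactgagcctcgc
Mnt, chr11:74830789-74830818, plus strand: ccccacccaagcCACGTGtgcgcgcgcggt
Mxd4, chr5:34187912-34187941, minus strand: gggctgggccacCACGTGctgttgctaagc
The motif began at position -3 from the start for Max, -40 for Mlx, -123 for Mnt and -219 for Mxd4. The kappaB motif, which NF-kappaB binds, was in 4.51% of all promoters and in 0 of the 11 promoters of the network genes. These matches describe the letters only and say nothing of binding in these cells.

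All 10 network genes passed the filter on low values (at least 1 RPKM in at least 2 libraries), as did 11040 genes in all. Max, the shared partner, had the highest level of the 10 in each of the 4 groups, and Mxd1 had the lowest. Myc moved most in this order, from the 7th place in NCsh libraries without RANKL to the 2nd with RANKL, and from the 4th to the 2nd place in TMBIM6sh libraries. In NCsh libraries without RANKL the levels of Mxi1, Mlx, Mxd4, Mnt and Mxd3 followed Max, each overlapping its neighbour in the order, and Myc stood below all of them. With RANKL, Myc stood between Max and the next gene in both hairpin groups without overlapping either. These are levels per exon length, which allows only a rough comparison between genes. The order depends on the exon length taken for each gene and on exons shared with genes of the other strand.

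**Figure D1:**
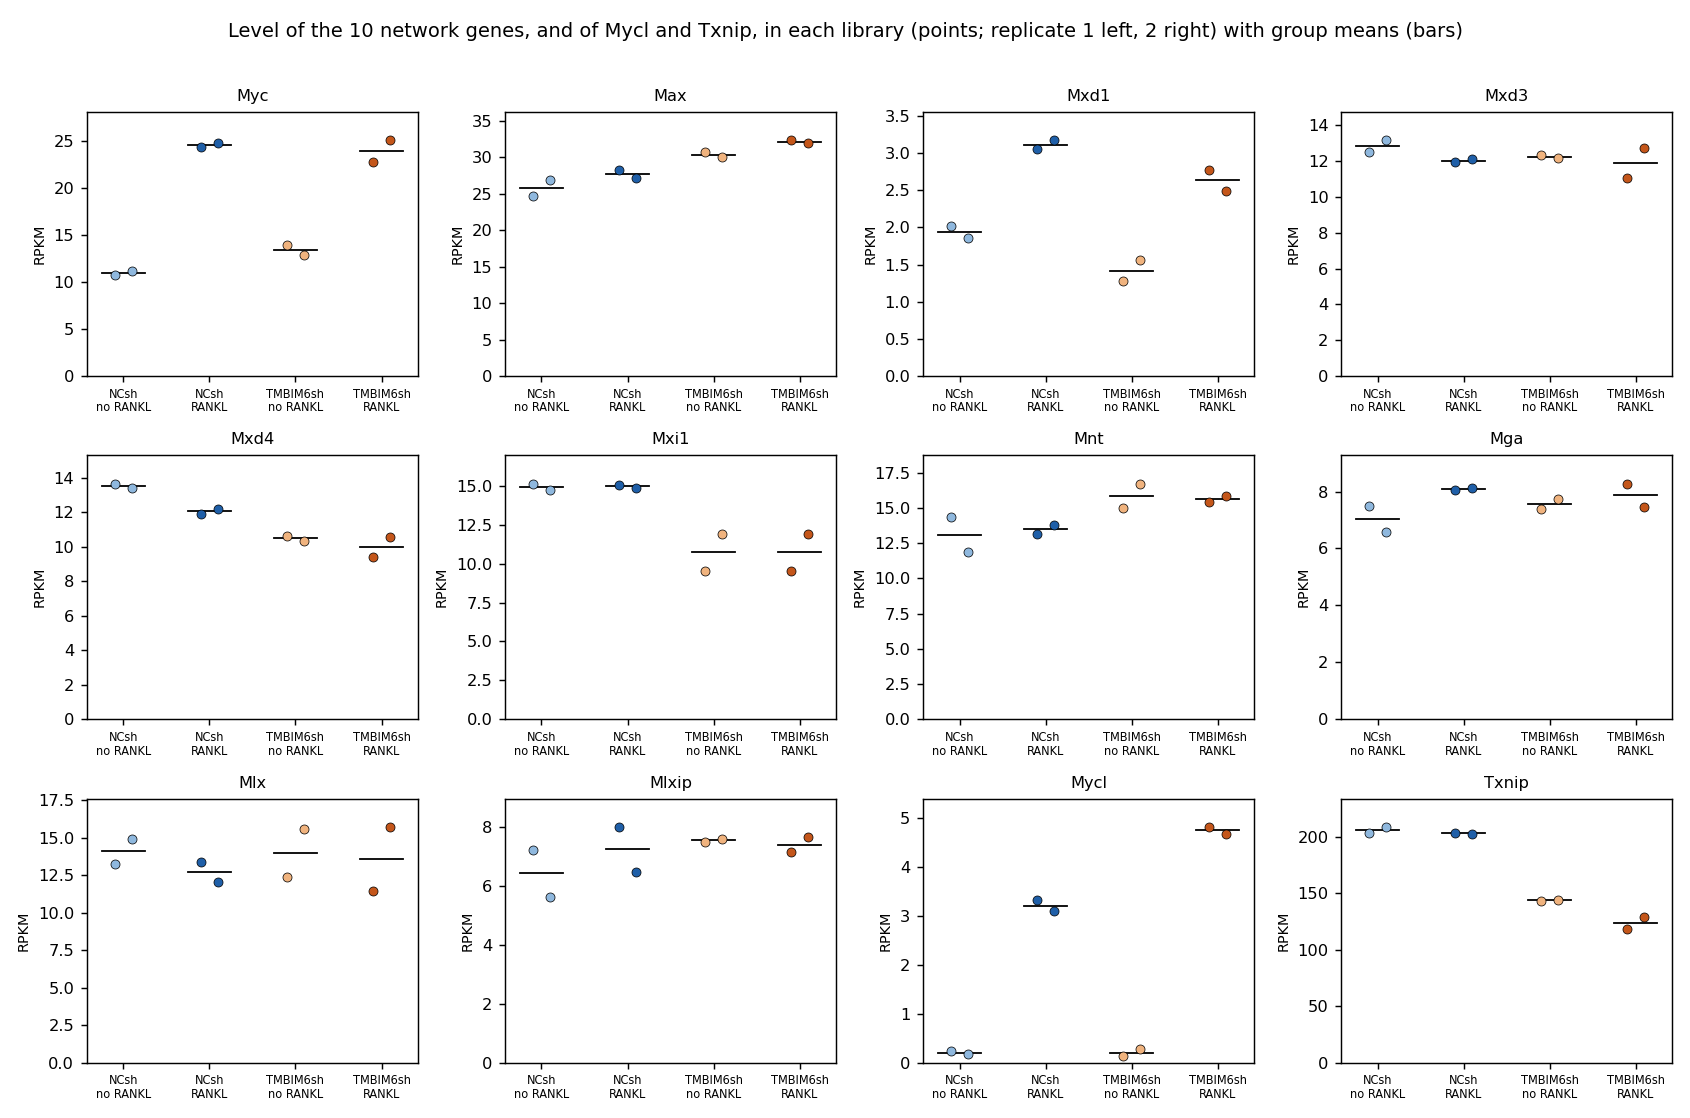
RPKM of the 10 network genes and of Mycl and Txnip (vertical axis, from 0) in the 4 groups (horizontal axis). Points are single libraries and bars are group means of 2 libraries. Myc and Mycl are high in the 4 libraries with RANKL, while Mxi1, Mxd4 and Txnip are lower in the 4 TMBIM6sh libraries.

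Myc, the activator of the network (chr15:61985341-61990361, plus strand, mm10), was higher with RANKL under both hairpins. Its level was 10.8 and 11.2 RPKM in NCsh libraries without RANKL and 24.4 and 24.8 RPKM with RANKL. The TMBIM6sh libraries had 14.0 and 12.8 RPKM without RANKL and 22.8 and 25.1 RPKM with RANKL. The 4 libraries with RANKL thus lay above the 4 without, and each value rested on 685 to 1701 tags. The ratio of means was 2.24 in NCsh libraries (log2 difference 1.09, SE 0.0721, adjusted p = 4.54e-05). In TMBIM6sh libraries it was 1.79 (log2 difference 0.79, SE 0.0721, adjusted p = 1.16e-04). Log2 differences are of log2(RPKM + 1), which understates changes of low genes, and adjusted p-values are from limma over the 11040 genes. Leaving out any 1 library kept both calls, with adjusted p-values from 1.39e-04 to 0.00240. In bulk RNA, a change in the share of cells with a transcript and a change in the amount per cell cannot be told apart.

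Without RANKL, Myc was 21.9% higher in TMBIM6sh than in NCsh libraries, and the groups did not overlap (log2 difference 0.26, 95% interval 0.10 to 0.43, adjusted p = 0.0260). This call was lost without the filter on low values (adjusted p = 0.0515) and when only the 4 libraries compared were fitted (0.0588). It was also lost without the first NCsh library or without either TMBIM6sh library, with adjusted p-values of 0.0759, 0.189 and 0.0534. With RANKL the groups overlapped and the log2 difference was -0.04 (95% interval -0.20 to 0.12, adjusted p = 0.719). Its sign turned under the median-ratio scaling (0.04). The difference between both responses to RANKL was -0.30 on the log2 scale (95% interval -0.53 to -0.07) and did not pass over all genes (adjusted p = 0.609). In that test 1 of 11040 genes was called (0.00906%), Snord104, a small nucleolar RNA gene named here after its value was seen, and 857 had an unadjusted p under 0.05. None of the network genes was called in it.

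Max, which MYC and its antagonists all need to bind DNA (chr12:76937269-76962248, minus strand), was higher in TMBIM6sh libraries. Its level was 24.7 and 26.9 RPKM in NCsh libraries without RANKL and 28.2 and 27.2 RPKM with RANKL. Under TMBIM6sh the levels were 30.7 and 30.0 RPKM without RANKL and 32.3 and 32.0 RPKM with RANKL. All 4 TMBIM6sh libraries lay above all 4 NCsh libraries. The rise was 17.6% without RANKL (log2 difference 0.23, SE 0.0633, adjusted p = 0.0278) and 16.2% with RANKL (log2 difference 0.21, SE 0.0633, adjusted p = 0.0339). Both calls were lost without the intensity trend of the fit (adjusted p = 0.0559 and 0.0638), and the first also in a fit of the 4 libraries compared (0.0694). Leaving out the first NCsh library or either TMBIM6sh library ended the first call, and leaving out any library other than the 2 NCsh libraries without RANKL ended the second (adjusted p up to 0.164). RANKL moved Max by 0.10 and 0.08 on the log2 scale in the NCsh and TMBIM6sh libraries, which did not pass (adjusted p = 0.338 and 0.463), although neither pair of groups overlapped.

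Mxd1, an antagonist that takes MAX from MYC and recruits a histone deacetylase complex (chr6:86647045-86669159, minus strand), was low and was higher with RANKL. It was at 2.01 and 1.85 RPKM in NCsh libraries without RANKL and at 3.05 and 3.17 RPKM with RANKL. With the TMBIM6sh hairpin they were 1.28 and 1.56 RPKM without RANKL and 2.77 and 2.49 RPKM with RANKL, on 162 to 422 tags over all 8 libraries. No library with RANKL fell into the range of those without. The ratio of means was 1.61 in NCsh libraries (log2 difference 0.49, SE 0.112, adjusted p = 0.0181) and 1.85 in TMBIM6sh libraries (log2 difference 0.59, SE 0.112, adjusted p = 0.00650). The first call was lost without the second NCsh library lacking RANKL or without either NCsh library given RANKL (adjusted p = 0.0757, 0.0824 and 0.0897). The second was lost without the first library of either TMBIM6sh group (0.0592 and 0.0536). Between hairpins Mxd1 had log2 differences of -0.28 without RANKL (adjusted p = 0.102, and 0.0487 without the intensity trend) and -0.18 with RANKL (0.261).

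Mxd4, another MXD antagonist (chr5:34176580-34187710, minus strand), fell in TMBIM6sh libraries. It was at 13.7 and 13.4 RPKM in NCsh libraries without RANKL and at 11.9 and 12.2 RPKM with RANKL. The corresponding TMBIM6sh values were 10.6 and 10.4 RPKM without RANKL and 9.43 and 10.6 RPKM with RANKL. Every TMBIM6sh library was below every NCsh library. The difference was -22.5% without RANKL (log2 -0.34, SE 0.0726, adjusted p = 0.00847) and -17.1% with RANKL (log2 -0.25, SE 0.0726, adjusted p = 0.0291). The first call was lost in 1 case, without the second TMBIM6sh library (adjusted p = 0.0645). The second was lost under the median-ratio scaling (log2 -0.18, adjusted p = 0.0832), in a fit of the 4 libraries compared (0.0541), and without either NCsh library or the first TMBIM6sh library (0.0951, 0.120 and 0.165). In NCsh libraries the log2 difference with RANKL was -0.16 (adjusted p = 0.186), with no overlap. Of the exon bases of Mxd4 6.06% are shared with an antisense gene, Gm42846, and tags of both strands were counted together.

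Mxi1, also known as Mxd2 (chr19:53330408-53373293, plus strand), was lower in TMBIM6sh libraries and was not called with RANKL. It was at 15.1 and 14.8 RPKM in NCsh libraries without RANKL and at 15.0 and 14.9 RPKM with RANKL. TMBIM6sh libraries stood at 9.56 and 11.9 RPKM without RANKL and again at 9.56 and 11.9 RPKM with RANKL. The 4 NCsh libraries spanned a narrow range, and in both TMBIM6sh groups the first library was the lower. The difference between hairpins was -28.2% in both RANKL states (log2 -0.45, SE 0.113, adjusted p = 0.0178 without and 0.0153 with RANKL). Both calls were lost without the filter on low values (adjusted p = 0.0795 and 0.0698) and without the first TMBIM6sh library of the comparison (0.141 and 0.115). The call without RANKL was also lost without the first NCsh library (0.0586), and that with RANKL without either NCsh library (0.0769 and 0.0642). The log2 difference with RANKL was 0.00 under both hairpins (95% interval -0.25 to 0.25 in NCsh and -0.25 to 0.26 in TMBIM6sh libraries).

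Mnt, an antagonist present in growing and resting cells alike (chr11:74830924-74845725, plus strand), was at 14.4 and 11.8 RPKM in NCsh libraries without RANKL and at 13.2 and 13.8 RPKM with RANKL. It was at 15.0 and 16.7 RPKM in TMBIM6sh libraries without RANKL and at 15.4 and 15.8 RPKM with RANKL. TMBIM6sh libraries lay above NCsh libraries without overlap in both states, but the differences did not pass the test. The log2 differences were 0.26 (adjusted p = 0.0670) without RANKL and 0.20 (0.136) with RANKL. Without the first NCsh library the former was called (log2 0.39, adjusted p = 0.0129). Mxd3, an MXD protein of dividing cells, ranged from 11.1 to 13.2 RPKM, and Mga, a very large protein that also belongs to a Polycomb complex, from 6.59 to 8.28 RPKM. Neither was called in any comparison, with log2 differences between -0.09 and 0.18.

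In the MLX branch, Mlx, the partner of MondoA (chr11:101087290-101092207, plus strand), ranged from 11.4 to 15.7 RPKM. Mlxip, which carries the glucose response (chr5:123394798-123457931, plus strand), ranged from 5.63 to 7.99 RPKM. Neither was called in any comparison. The duplicates of Mlx in TMBIM6sh libraries differed widely, at 12.4 and 15.6 RPKM without RANKL and 11.4 and 15.7 RPKM with RANKL, and its groups overlapped in all 4 comparisons. The 95% intervals of its log2 difference between hairpins were -0.34 to 0.31 and -0.25 to 0.40, so differences within these bounds remain possible. Of its exon bases 19.3% are shared with Psmc3ip on the other strand.

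**Figure D2:**
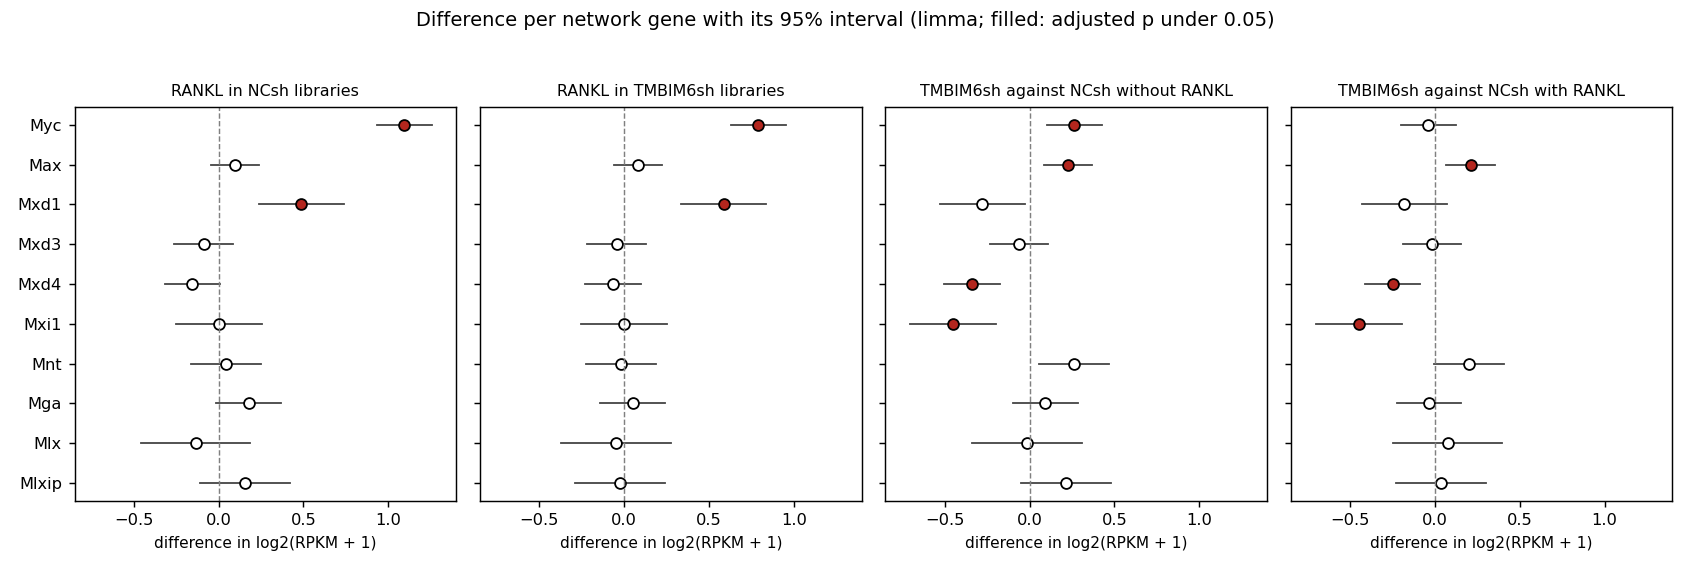
Difference in log2(RPKM + 1) (horizontal axis) of the 10 network genes (vertical axis) in 4 comparisons, with 95% intervals from limma. Filled points have an adjusted p under 0.05. Myc and Mxd1 are filled with RANKL under both hairpins, Max, Mxd4 and Mxi1 in both comparisons of hairpins, and Myc between hairpins without RANKL.

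Over the 10 genes, RANKL raised 2 (Myc and Mxd1) and lowered 0 in NCsh libraries, where 15.0% of all genes tested were called (11.0% higher and 3.98% lower). In TMBIM6sh libraries it again raised these 2 and lowered 0, beside 15.4% of all genes (8.53% higher and 6.89% lower). Between hairpins without RANKL 2 rose (Myc and Max) and 2 fell (Mxd4 and Mxi1), beside 24.2% of all genes (10.4% higher and 13.8% lower). With RANKL 1 rose (Max) and 2 fell (Mxi1 and Mxd4), beside 28.6% (8.93% higher and 19.7% lower). These counts are small, and in the RANKL comparisons a share of 20.0% lies near that of all genes. So does the share of 30.0% between hairpins with RANKL. Between hairpins without RANKL the share was 40.0%, against 24.2%. Groups did not overlap for 6 and 3 of the 10 with RANKL in NCsh and TMBIM6sh libraries (56.1% and 58.3% of all genes), and for 8 and 5 between hairpins without and with RANKL (61.6% and 66.4%). The median log2 difference of the 10 was 0.07, -0.01, 0.04 and -0.03 in these 4 comparisons, against 0.06, 0.02, -0.02 and -0.07 for all genes tested. The comparisons share groups and are not independent. With 2 libraries against 2, an exact two-sided permutation test cannot go below p = 0.333, so none was used.

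The balance of Myc against its partner and antagonists was computed in each library from RPKM and is given without a test. Myc was at 16.6% and 18.2% of the summed level of the antagonists (Mxd1, Mxd3, Mxd4, Mxi1, Mnt and Mga) in NCsh libraries without RANKL and at 38.6% and 38.7% with RANKL. The TMBIM6sh libraries had shares of 24.9% and 21.2% without RANKL and of 40.4% and 41.1% with RANKL. This share was lowest in the NCsh libraries without RANKL and highest in the TMBIM6sh libraries with RANKL, and no pair of groups overlapped. The antagonist sum itself stayed between 56.2 and 65.2 RPKM. Relative to Max, Myc was at 43.8% and 41.6% in NCsh libraries without RANKL and at 86.6% and 91.5% with RANKL. Under TMBIM6sh it was at 45.5% and 42.9% of Max without RANKL and at 70.6% and 78.5% with RANKL. The share was thus higher in both NCsh than in both TMBIM6sh libraries with RANKL, and without RANKL the hairpin groups overlapped. RNA levels do not give the amounts of the proteins or of their pairs.

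**Figure D3:**
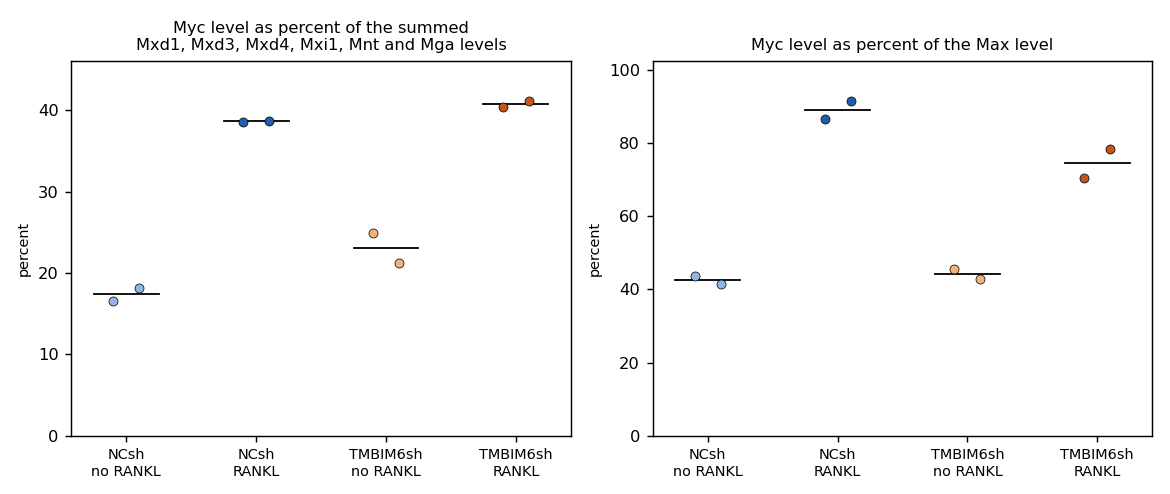
Myc level as a percent of the summed antagonist level (left) and of the Max level (right), vertical axes from 0, in the 4 groups (horizontal axis). Points are libraries and bars are means of 2. The left share is 16.6% to 24.9% without RANKL and 38.6% to 41.1% with RANKL.

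Of the genes of the network outside these 10, Mycl, a MYC relative that also pairs with MAX (chr4:122995931-123002480, plus strand), was near 0 without RANKL and higher with it. It was at 0.229 and 0.181 RPKM in NCsh libraries without RANKL and at 3.32 and 3.10 RPKM with RANKL. With the TMBIM6sh hairpin they were 0.134 and 0.277 RPKM without RANKL and 4.83 and 4.68 RPKM with RANKL. These levels rest on 12 to 26 tags without RANKL and 279 to 409 tags with it, so Mycl passed the filter on low values only through the RANKL groups. That fixes the direction of its response, so the ratios of means with RANKL, 15.7 in NCsh and 23.1 in TMBIM6sh libraries, are a description with no test. With RANKL, Mycl was higher in TMBIM6sh libraries by a ratio of 1.48 (log2 difference 0.45, SE 0.123, adjusted p = 0.0218). That call was lost with a pseudocount of 0.1 RPKM (adjusted p = 0.189) and without any 1 of the 4 libraries compared (0.0733 to 0.109). The difference between both responses did not pass (log2 0.45, adjusted p = 0.624). Even with RANKL, Mycl stayed at 12.5% to 21.2% of the Myc level. Mycn and Mlxipl, the relatives of Myc and Mlxip best known from neural tissue and liver, reached at most 0.03 and 0.043 RPKM and were not tested.

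Among 39 tested of 40 listed genes that MYC is known to activate, 21 rose and 1 fell with RANKL in NCsh libraries (56.4% called, against 15.0% of all genes). In TMBIM6sh libraries 17 rose and 1 fell (46.2% called, against 15.4%). The median log2 difference of the list was 0.30 in both, against 0.06 and 0.02 over all genes. Under the median-ratio scaling 16 rose and 1 fell in NCsh libraries, and 18 rose and 1 fell in TMBIM6sh libraries. The medians of the list were then 0.22 and 0.28, against -0.0072 and -0.0048 over all genes. Without the first NCsh library with RANKL the 22 called in NCsh libraries became 14, and without the second TMBIM6sh library lacking RANKL the 18 called in TMBIM6sh libraries became 11. The number of all genes called also fell in both of these fits. Leaving out single libraries moved the TMBIM6sh count of the list in both directions. Tert, which encodes the telomerase protein, reached 0.054 RPKM and was not tested. Nop56, a protein of the particles that modify ribosomal RNA, was at 26.7 ± 0.176 RPKM without and 40.3 ± 0.00707 RPKM with RANKL in NCsh libraries (SD, n = 2), a rise of 0.57 on the log2 scale (adjusted p = 6.04e-04). Dkc1, the enzyme of ribosomal RNA pseudouridylation, rose from 6.41 ± 0.117 to 11.7 ± 0.520 RPKM (SD, n = 2, log2 0.78). Shmt2, the mitochondrial serine hydroxymethyltransferase, rose from 18.0 ± 0.646 to 29.7 ± 0.0933 RPKM (SD, n = 2, log2 0.69). The gene that fell was Ccnd2, a D-type cyclin, which went from 7.45 ± 0.558 to 2.95 ± 0.0537 RPKM (SD, n = 2) with a log2 difference of -1.09 (adjusted p = 1.15e-04).

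In TMBIM6sh libraries with RANKL, Srm, the spermidine synthase, rose from 16.2 ± 0.0297 to 28.1 ± 2.02 RPKM (SD, n = 2, log2 0.76). Pa2g4, a nucleolar growth regulator, rose by 0.63 and Nop56 by 0.54 on the log2 scale, and Ccnd2 again fell (log2 -1.16, adjusted p = 4.48e-05). Cell division genes moved with this list. Of 16 listed, 15 rose in NCsh libraries (93.75% called, against 15.0% of all genes). The median log2 difference of the list was 0.70, with Rrm2 at 0.91 and Top2a at 1.07. In TMBIM6sh libraries 15 rose and 1, Pcna, fell (100% called, against 15.4%, median 0.80), with Rrm2 at 1.03 and Birc5 at 1.20. The call of Pcna was lost without 3 of the 4 TMBIM6sh libraries in turn. The list of cell division genes shares 0 genes with the MYC-activated list, and its part in that list's change was not tested. Macrophage markers moved as well, with 4 and 5 of 8 lower with RANKL in the NCsh and TMBIM6sh libraries and 0 higher. Of all genes tested, 3.98% and 6.89% were lower. The median log2 differences of these markers were -0.35 and -0.48, against 0.06 and 0.02 for all genes. Under the median-ratio scaling 6 and 5 were lower. Between hairpins 1 of 8 was lower without RANKL and 3 with RANKL, and 0 were higher. Of all genes, 13.8% and 19.7% were lower there. The marker medians were then -0.13 and -0.22, against -0.02 and -0.07.

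Between hairpins the MYC-activated list did not move in 1 direction. Without RANKL 3 of 39 rose and 3 fell (15.4% called, against 24.2% of all genes, median log2 difference 0.01), and with RANKL 3 rose and 5 fell (20.5%, against 28.6%, median 0.03). Under the median-ratio scaling the counts were 5 up and 3 down without RANKL and 7 up and 3 down with RANKL. The 6 called without RANKL became 3 without the second TMBIM6sh library of that state. The 8 called with RANKL became 3 without the first NCsh or the second TMBIM6sh library with RANKL, and 5 without the second NCsh library with RANKL or without the intensity trend. Dkc1 fell from 6.41 ± 0.117 to 2.67 ± 0.188 RPKM without RANKL (SD, n = 2), a log2 difference of -1.01 (adjusted p = 5.06e-05). With RANKL it fell from 11.7 ± 0.520 to 4.73 ± 0.255 RPKM (SD, n = 2), a log2 difference of -1.15 (adjusted p = 2.45e-05). Eif4a1, the helicase of translation initiation, and Ptma, prothymosin alpha, also fell in both states. Their log2 differences were -0.88 and -0.88 without RANKL and -0.91 and -0.77 with it. Both have near-identical copies in the genome, so their levels are uncertain. Ddx21, a helicase of ribosomal RNA synthesis, rose from 34.0 ± 0.0481 to 41.4 ± 1.04 RPKM without RANKL (SD, n = 2, log2 0.28), and Srm rose with RANKL (log2 0.35). The Ddx21 call was lost without the second of these TMBIM6sh libraries, and the Srm call without the first NCsh or the second TMBIM6sh library with RANKL. Of 16 cell division genes, 14 were lower in TMBIM6sh libraries without RANKL (87.5% called, against 24.2% of all genes). With RANKL 13 were lower (81.25%, against 28.6%), and 0 were higher in either state. The summed level of the 16 was 455 to 476 RPKM in NCsh and 411 to 413 RPKM in TMBIM6sh libraries without RANKL. With RANKL it was 608 to 611 and 491 to 506 RPKM. Pcna, which was not called between hairpins, reached 246 RPKM and weighed heavily in this sum. The median log2 difference of the list was -0.46 without and -0.44 with RANKL, against -0.02 and -0.07 for all genes tested. The 2 examples with the smallest p were Birc5 (log2 -0.84) and Mki67 (-0.88) without RANKL, and Mki67 (-0.73) and Top2a (-0.70) with RANKL. The part of cell division in the differences between hairpins was not tested.

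**Figure D4:**
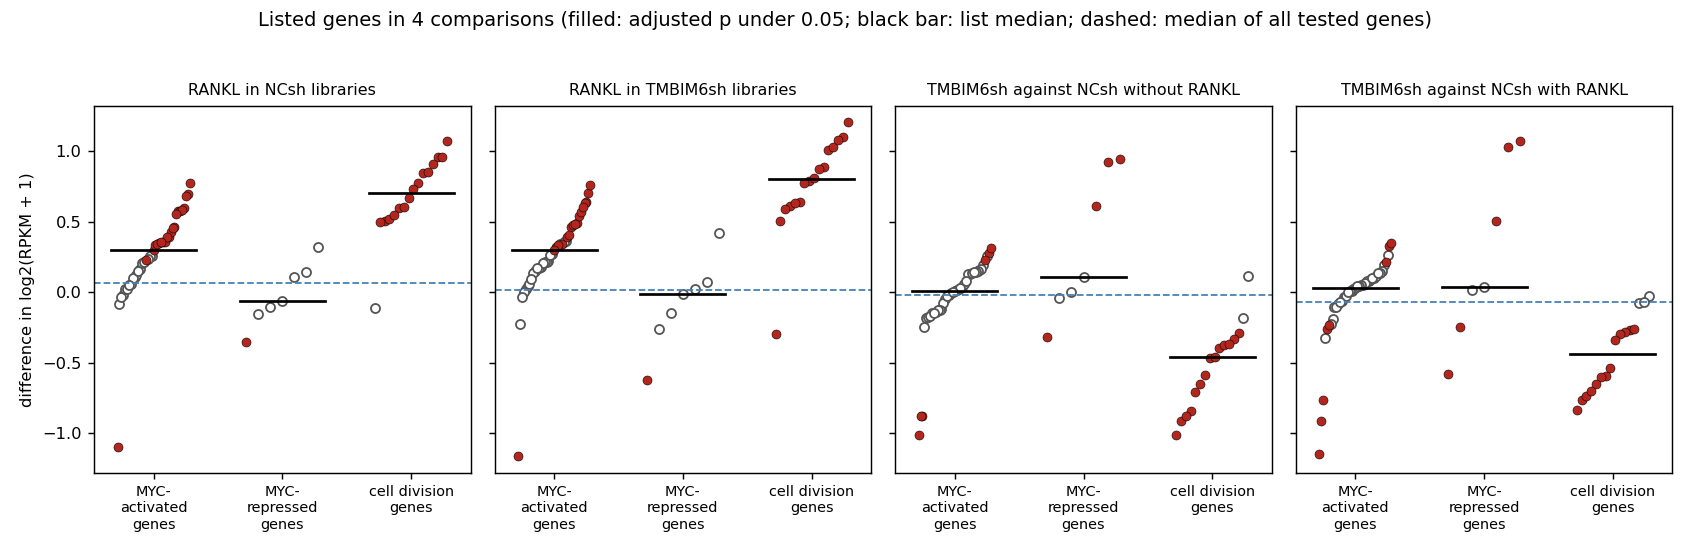
Difference in log2(RPKM + 1) (vertical axis) of listed MYC-activated, MYC-repressed and cell division genes (horizontal axis) in 4 comparisons. Filled points have an adjusted p under 0.05, black bars are list medians and dashed lines the median of all genes tested. The MYC-activated median is 0.30 with RANKL under both hairpins and 0.01 and 0.03 between hairpins.

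Of 8 listed genes that MYC is known to repress, 7 were tested. RANKL lowered 1 of them under both hairpins, Ndrg1, a growth-restraining stress gene, with 71.2 ± 0.108 RPKM before and 55.4 ± 0.571 RPKM after in NCsh libraries (SD, n = 2), a log2 difference of -0.36 (adjusted p = 0.00237). The TMBIM6sh libraries had 56.9 ± 1.38 and 36.7 ± 0.387 RPKM (SD, n = 2), a log2 difference of -0.62 (adjusted p = 9.30e-05). Under each hairpin this 1 call is 14.3% of the 7 tested, near the 15.0% and 15.4% of all genes. Between hairpins 3 rose and 1 fell without RANKL (57.1% called, against 24.2% of all genes). With RANKL 3 rose and 2 fell (71.4%, against 28.6%). The 3 that rose were Gadd45a, a DNA damage response gene (log2 0.61 without and 0.51 with RANKL), Cdkn2b, an inhibitor of cyclin D kinases (0.93 and 1.03), and Fth1, the ferritin heavy chain (0.94 and 1.07). Without RANKL, Cdkn2b had 2.04 ± 0.263 RPKM under NCsh and 4.81 ± 1.08 RPKM under TMBIM6sh (SD, n = 2). Those that fell were Ndrg1 in both states (log2 -0.32 and -0.58) and the cyclin kinase inhibitor Cdkn1b with RANKL (-0.25). The Cdkn1b call held with 3 of the 8 libraries left out in turn and under 2 of 6 other settings. The Fth1 calls were lost without the filter (adjusted p = 0.621 and 0.529). Fth1 has near-identical copies in the genome, which makes its level uncertain.

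MLXIP and MLX are known to activate Txnip and Arrdc4, relatives of the arrestins that restrain glucose uptake. Txnip was lower in TMBIM6sh libraries, although Mlx and Mlxip were not called. It was at 203 and 209 RPKM in NCsh libraries without RANKL and at 204 and 203 RPKM with RANKL. The corresponding TMBIM6sh values were 143 and 144 RPKM without RANKL and 118 and 129 RPKM with RANKL. No TMBIM6sh library reached the level of any NCsh library. The difference between hairpins was -30.3% without RANKL (log2 -0.52, SE 0.0613, adjusted p = 3.68e-04) and -39.1% with RANKL (log2 -0.71, SE 0.0613, adjusted p = 5.19e-05), and both calls held under every setting tried. RANKL lowered Txnip in TMBIM6sh libraries (log2 -0.21, adjusted p = 0.0429), a call lost without the filter (0.0635), without the intensity trend (0.0875) and without 5 of the 8 libraries in turn. The difference between both responses did not pass (log2 -0.20, adjusted p = 0.637). Of the exon bases of Txnip 19.4% are shared with its antisense gene Gm15441. Arrdc4 ranged from 21.6 to 26.2 RPKM and was not called, with log2 differences between hairpins of -0.12 and -0.13 (adjusted p = 0.235 and 0.174).

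The start regions of this pair are shown because MLXIP and MLX are known to act on both genes. The Txnip promoter holds the carbohydrate response element, searched on both strands, at position -85 from the start. This motif is in 0.365% of all promoters and in 0 of the 11 promoters of the network genes, and it begins like an E-box but need not contain CACGTG. The Arrdc4 window holds no match to that element, and CACGTG is at position -193. Motif letters are in capitals (RefSeq, GRCm38.p6).
Txnip, chr3:96557866-96557895, plus strand: actgtgCACGAGGGCTGCACGAGcctccag
Arrdc4, chr7:68749414-68749443, minus strand: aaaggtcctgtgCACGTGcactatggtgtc
Among the MYC-activated genes, 9 of the 33 with a promoter entry held CACGTG, against 8.09% of all 27025 genes with an entry.

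Of 12 MYC cofactors 1 rose with RANKL under each hairpin, Ruvbl2, a helicase of chromatin remodelling complexes, from 16.5 ± 1.22 to 23.3 ± 0.672 RPKM in NCsh libraries (SD, n = 2, log2 0.47 and, in TMBIM6sh libraries, 0.53). That is 8.33% of the list, against 15.0% and 15.4% of all genes. Log2 differences were above 0 for 11 and 8 of the 12 in NCsh and TMBIM6sh libraries. Their medians were 0.18 and 0.07, against 0.06 and 0.02 for all genes tested. Between hairpins 1 rose without RANKL (8.33%, against 24.2% of all genes), and 1 rose and 1 fell with RANKL (16.7%, against 28.6%). The one that fell was Wdr5, a histone methyltransferase subunit (log2 -0.23), and its call held with 3 of the 8 libraries left out in turn and under 1 of 6 other settings. Of 14 subunits of the SIN3-HDAC corepressor, which MXD proteins recruit, 2 rose with RANKL under each hairpin and 0 fell (14.3%, near the share of all genes). These were Rbbp7, a histone chaperone (log2 0.49 and 0.45), with Hdac2, a deacetylase, in NCsh libraries (0.26) and Sin3a, the scaffold, in TMBIM6sh libraries (0.28). The Sin3a call was lost without any 1 of the 4 TMBIM6sh libraries, and the Hdac2 call with the median-ratio scaling, with only the groups compared and without 5 of the 8 libraries in turn. Between hairpins the SIN3 subunit Suds3 fell in both states (-0.51 and -0.51) and Ing1, a histone reader, with RANKL (-0.50). That is 7.14% of the list without RANKL and 14.3% with RANKL, against 24.2% and 28.6% of all genes.

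The partners of MGA in the Polycomb complex PRC1.6 numbered 10. With RANKL 2 rose under each hairpin, Tfdp1, the partner of E2F factors (log2 0.59 and 0.38), and Cbx3, a heterochromatin protein (0.38 and 0.24). That is 20.0% of the list, against 15.0% and 15.4% of all genes. The Cbx3 call in TMBIM6sh libraries held with 2 of the 8 libraries left out in turn and under 1 of 6 other settings. Between hairpins 3 were called in each state (30.0%, against 24.2% and 28.6% of all genes). Rybp, a Polycomb subunit, fell from 11.4 ± 0.0792 to 6.93 ± 0.111 RPKM without RANKL (SD, n = 2, log2 -0.65) and by -0.59 on the log2 scale with RANKL. Cbx3 fell in both states (-0.25 and -0.40), Tfdp1 rose without RANKL (0.23) and Rnf2, a ubiquitin ligase, fell with RANKL (-0.38). Without RANKL the calls of Cbx3 and Tfdp1 were lost without the filter, without the trend and with only the groups compared.

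Of 10 genes for the turnover of the MYC protein, 3 rose with RANKL in NCsh libraries (30.0%, against 15.0% of all genes). In TMBIM6sh libraries 1 rose (10.0%, against 15.4%). Aurka, a mitotic kinase that stabilises MYC proteins, rose in both (log2 0.75 and 0.48), and the ubiquitin ligase genes Skp2 (0.39) and Huwe1 (0.30) were called in NCsh libraries. The Aurka call in TMBIM6sh libraries was lost without the filter, without the trend and without any 1 of the 4 TMBIM6sh libraries. The calls of Skp2 and Huwe1 were lost without the filter, with the scaling and with only the groups compared. The difference between the hairpins in these responses was not called for any of them. Between hairpins 1 rose and 3 fell in each RANKL state (40.0%). The share of all genes was 24.2% without and 28.6% with RANKL. Skp2 fell from 4.95 ± 0.390 to 2.12 ± 0.0735 RPKM without RANKL (SD, n = 2, log2 -0.93) and from 6.78 ± 0.395 to 2.55 ± 0.185 RPKM with RANKL (SD, n = 2, log2 -1.13). Aurka (log2 -0.63 and -0.91) and the ligase gene Stub1 (-0.45 and -0.29) fell, and Fbxw7, the ligase gene best known for removing MYC, rose (0.30 and 0.28). The Fbxw7 calls were lost without the filter, with only the groups compared and without any 1 of the 4 libraries compared, and the Stub1 call with RANKL without 3 of the 4 libraries in turn. Skp2 and Aurka are themselves genes of dividing cells, and most of the cell division list fell in the same comparisons. The part of cell division in the differences of Skp2 and Aurka was not tested.

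Across the 8 libraries the genes most like Myc by Pearson's r of log2(RPKM + 1), among 2245 genes of sufficient level and spread, were Iars (r = 0.991), Orai2 (0.990), Shmt2 (0.990), Ralgds (0.989) and Sestd1 (0.986). Such values describe 8 libraries in 4 groups, where any gene that differs between the same groups scores high. The genes nearest to Max were Tma16 (0.981), Senp6, Cables2, Nifk and Zwint (0.973). Those nearest to Mxd1 were Anp32e (0.985), Pmaip1, Mcm6, Clspn and Flrt2 (0.981). Those nearest to Mxd4 were Bak1 (0.990), Cln8, Atp6v0d1, B3gnt8 and Susd3 (0.985). For Mxi1 they were 1110012L19Rik (0.968), Ecm1, Vps25, Nkap and Stk38 (0.961). Iars went from 28.3 to 39.0 RPKM with RANKL in NCsh libraries and from 29.9 to 38.6 RPKM in TMBIM6sh libraries.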

How the data were processed

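The deposited values are RPKM per gene, made by the authors with HOMER's analyzeRepeats on mm10 with RefSeq models, per the file headers: tags over exons of both strands were counted and isoforms condensed to 1 entry a gene. Column names read FPKM, but RPKM is what the command requests. The submitters' processing notes also name HISAT2 and DESeq2. Steps of 1 tag in low values gave the depth; the 1913 to 2002 values tested in each library were 100% whole to within 0.1 tags.

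The network genes and lists were chosen with earlier results of these data known. Log2(RPKM + 1) values of genes with at least 1 RPKM in at least 2 libraries were fitted with limma 3.58.1 in R 4.3.3, with 1 mean per group, an intensity trend and a spread shared by all groups (4 residual degrees of freedom). Adjustment was by Benjamini-Hochberg over 11040 genes, with a threshold of 0.05. The fit was tested on simulated data with a single assumed level of variation for all genes. Real libraries need not vary in that way, and no result above rests on it. Named are Tmbim6, the network genes, up to 4 called genes per list and comparison with the smallest p (2 for cell division), and the 5 genes with the highest r (mean of at least 5 RPKM, SD of at least 0.2). A gene that this rule names is not reported here. Alternatives were a pseudocount of 0.1, no filter, median-ratio scaling, no trend, the replicate block, only the groups compared, and leaving out each library. Duplicates correlated at 0.993 to 0.995 across genes.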

Additional observations from a re-analysis of the deposited data

How the results depend on the processing

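Of the calls on network genes, those of Myc with RANKL held under every setting and without any 1 library. The others each ended without at least 1 library, named above. All genes called with RANKL in NCsh libraries fell from 1653 to 1020 when only these 4 libraries were fitted. Network genes called between hairpins without RANKL fell from 4 to 2 without the filter and to 2 with only the 4 libraries. For the interaction, 8 genes were called without the filter and 2 without the trend, against 1. The causes were not tested. Median-ratio scaling moved the median of all genes by under 0.1 on the log2 scale. It changed the split of higher and lower genes from 1214 and 439 to 787 and 850 with RANKL in NCsh libraries, and from 986 and 2171 to 1608 and 1621 between hairpins with RANKL.

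That scaling turned the sign of some uncalled log2 differences. They became -0.076 for Mxi1 and -0.033 for Mnt with RANKL in NCsh libraries, and -0.022 for Mxi1 in TMBIM6sh libraries. Between hairpins they became 0.0044 for Mlx and 0.0015 for Mycl without RANKL, and 0.037 for Myc, 0.055 for Mxd3 and 0.035 for Mga with RANKL. For the interaction they became 0.037 for Max and 0.044 for Arrdc4.

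With 1 library left out in turn, where a lone library is assumed to vary like the others, the network genes called numbered 1 to 2, 1 to 2, 1 to 4 and 0 to 3 in the 4 comparisons and 0 for the interaction. All genes called numbered 694 to 1520, 826 to 2056, 1396 to 2523, 1870 to 3558 and 0 to 2. Log2 differences that turned sign were all uncalled. With RANKL in NCsh libraries they spanned -0.016 to 0.019 for Mxi1, -0.085 to 0.17 for Mnt, -0.00051 to 0.31 for Mlxip and -0.039 to 0.00059 for Txnip. With RANKL in TMBIM6sh libraries they spanned -0.14 to 0.051 for Mxd3, -0.14 to 0.0088 for Mxd4, -0.14 to 0.15 for Mxi1, -0.092 to 0.054 for Mnt, -0.018 to 0.12 for Mga, -0.26 to 0.17 for Mlx and -0.067 to 0.017 for Mlxip. Between hairpins without RANKL they spanned -0.17 to 0.14 for Mlx and -0.087 to 0.084 for Mycl. Between hairpins with RANKL they spanned -0.11 to 0.027 for Myc, -0.11 to 0.076 for Mxd3, -0.10 to 0.032 for Mga, -0.14 to 0.29 for Mlx and -0.10 to 0.17 for Mlxip. For the interaction they spanned -0.079 to 0.043 for Max, -0.0500 to 0.14 for Mxd3, -0.15 to 0.15 for Mxi1, -0.19 to 0.066 for Mnt, -0.12 to 0.30 for Mlx and -0.072 to 0.049 for Arrdc4.

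Libraries with the same replicate number showed little shared deviation across genes (correlations of deviations between groups from -0.0651 to 0.0625). This cannot tell whether they came from a shared animal or culture. With the replicate number as a block 2, 2, 4 and 3 network genes were called in the 4 comparisons, as without it, and 1608, 1670, 2654 and 3128 genes in all. Counts of list genes called that moved over 1.5 times, in settings other than those leaving out 1 library, were as follows. With RANKL in NCsh libraries, MYC cofactors went from 1 to 2 with the block, SIN3-HDAC subunits from 2 to 1 with the scaling or only the groups compared, and turnover genes from 3 to 1 with either of these or no filter. With RANKL in TMBIM6sh libraries, turnover genes went from 1 to 0 without the filter or the trend, PRC1.6 partners from 2 to 1 without the filter or the trend or with the scaling or the block, and MYC-repressed genes from 1 to 2 with the scaling, the block or only the groups compared. Between hairpins without RANKL, cofactors went from 1 to 0 without the filter or with only the groups compared, and PRC1.6 partners from 3 to 1 in those settings or without the trend. Between hairpins with RANKL, cofactors went from 2 to 0 without the filter or the trend and to 1 with the scaling, the block or only the groups compared, MYC-repressed genes from 5 to 3 without the filter, and MYC-activated genes from 8 to 5 without the trend. Depth of 12 to 26 tags limits Mycl without RANKL.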
